A study of Homo sapiens with 6 samples.

Results

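The genes described here are 46 genes that drive or mark mitosis, chosen by name as rows of the deposited count table, out of 56478 usable gene rows. They cover the mitotic cyclins and CDK1, the Aurora and Polo kinases, the spindle checkpoint, kinetochores, mitotic kinesins, cytokinesis, partners of the anaphase-promoting complex, the transcription factors MYBL2 and FOXM1, and the proliferation markers MKI67 and TOP2A. RNA-seq was done on BT20, an established human line of triple negative breast cancer, kept in serum-containing DMEM/F12 without further treatment. One group of 3 libraries carried the control hairpin (pLK0-shControl, here shControl), and the other group of 3 carried a hairpin against cytokeratin 5 (pLK0-shCK5-425222, here shCK5-22). The knockdown group rests on 1 hairpin, and cell clones or separate cultures are not named in the labels.

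Entry into mitosis is driven by CDK1 bound to cyclin B, with cyclin A acting before it and CDC25 phosphatases removing the inhibitory phosphates from CDK1. Aurora and Polo-like kinases then build the spindle, kinetochores attach chromosomes to it, and the checkpoint holds the anaphase-promoting complex, a ubiquitin ligase, until all are attached. Transcripts of most of these genes build up together in late S phase and G2, under the MuvB complex with MYBL2 (B-MYB) and FOXM1. These factors act at a promoter element called the cell cycle genes homology region (CHR) and at CCAAT boxes bound by NF-Y. In quiescent cells the DREAM complex, in which MuvB is joined by a pocket protein and E2F, represses the same genes.

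All 46 genes passed the filter on low counts, with mean levels from 11.4 to 1033 CPM (the count scaled to a common library size, with TMM factors) and at least 598 counts in every library. Libraries held 47703937 to 65541734 counts. KRT5, the targeted gene, measured 231, 247 and 244 CPM in replicates 1, 2 and 3 of shControl but 21.1, 22.7 and 24.1 CPM in those of shCK5-22, as the labels have it. Values of a gene are given below in that order of libraries. Among the shCK5-22 libraries replicate 1 stood apart, with a chi-square per degree of freedom of 33.7 and 19.8 against replicates 2 and 3, where these 2 differed by 5.08 and shControl pairs by 3.47 to 4.88. The epithelial markers EPCAM, KRT8 and KRT18 averaged 234, 3815 and 1627 CPM under shControl, ESR1 and ERBB2 14.5 and 120.2 CPM, and PGR had 0 to 4 counts per library. Of the 8 BT20 markers tested 0 rose and 5 fell in shCK5-22 by edgeR at an adjusted p below 0.05 (median log2 fold change -0.25), where 34.2% of all genes tested were called, 16.8% lower. The markers that fell were KRT5, CDH1 (553 to 429 CPM on average), EGFR (1477 to 1303), ESR1 (14.5 to 11.5) and ERBB2 (120.2 to 83.8), while EPCAM, KRT8 and KRT18 did not pass. Pooled in that list are markers expected high in BT20, the targeted KRT5 among them, and ESR1, PGR and ERBB2, expected low. Its count, median and sum therefore do not measure the identity of the cells. The list summed to between 7971 and 8194 CPM in shControl and 7564 and 7913 CPM in shCK5-22. Of 8 leukocyte markers 3 passed the filter, CD3D and MS4A1 were at 0, and the list summed to between 1.71 and 2.48 CPM in shControl and 2.82 and 3.45 CPM in shCK5-22, with 1 of the 3 higher. The 5 endothelial markers summed to 23.9 to 31.6 and 19.5 to 31.8 CPM, with 1 lower. Of 6 fibroblast markers 4 passed, PDGFRA was at 0, and they summed to 31.7 to 32.8 and 28.2 to 29.2 CPM, nearly all of it COL1A1, which fell. The other fibroblast markers were low: PDGFRB rose from 0, 0.092 and 0.0634 to 1.23, 0.77 and 1.25 CPM and LUM from 0.0832, 0.0613 and 0.159 to 0.399, 0.268 and 0.454 CPM, COL1A2 did not pass, and the median log2 fold change of the 4 was 0.80. The share of counts in mitochondrially encoded mRNAs was 6.75% to 6.96% in shControl and 6.22% to 6.32% in shCK5-22. The part of these markers and of that share in the results was not tested.

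The promoters of these genes show the elements that the rule for choosing them did not use. RefSeq entries on GRCh38.p14 were found for 39 of the 46 genes, each holding 250 bases before and 50 after the start, and were searched on both strands for TTTGAA (the CHR), CCAAT and GGCGGGA (an E2F-type site), motifs of which none contains another. AURKA, BIRC5, TPX2, BUB3, TTK, UBE2C and FOXM1 have no entry there. Only exact matches were counted, so a CHR with a sequence other than TTTGAA would be missed. A CHR was present in 28 of the 39 (71.8%), against 10.2% of the 10995 tested genes with an entry. CCAAT was present in 29 (74.4%, against 36%), at least 2 copies of it in 17 (43.6%, against 13%), and CHR and CCAAT together in 23 (59%, against 4.27%). The E2F-type site was in 12 (30.8%, against 24.3%). In 22 of the 28 promoters with a CHR, the first match lay within 60 bases before to 50 after the start. The 250 bases before the start are shown for 6 genes, from 5′ to 3′ on the gene's own strand, with matches in capitals. PLK1 (chr16:23678639-23678888, plus strand) and CCNB2 (chr15:59104896-59105145, plus strand) have the usual layout of CCAAT boxes upstream of a CHR.
PLK1: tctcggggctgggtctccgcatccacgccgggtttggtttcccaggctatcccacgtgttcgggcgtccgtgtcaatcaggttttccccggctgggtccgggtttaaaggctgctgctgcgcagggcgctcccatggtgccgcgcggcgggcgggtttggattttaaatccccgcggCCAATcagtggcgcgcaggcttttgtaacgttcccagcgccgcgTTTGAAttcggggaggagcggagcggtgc
CCNB2: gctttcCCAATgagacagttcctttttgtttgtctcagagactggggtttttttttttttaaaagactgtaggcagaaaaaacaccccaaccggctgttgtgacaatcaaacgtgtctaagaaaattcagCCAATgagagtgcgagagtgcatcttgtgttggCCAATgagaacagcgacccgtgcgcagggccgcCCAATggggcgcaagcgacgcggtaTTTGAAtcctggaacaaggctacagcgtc
MYBL2 (chr20:43666864-43667113, plus strand) and CDC25B (chr20:3786701-3786950, plus strand) are the genes that rose most, and hold the E2F-type site with no CHR or CCAAT match.
MYBL2: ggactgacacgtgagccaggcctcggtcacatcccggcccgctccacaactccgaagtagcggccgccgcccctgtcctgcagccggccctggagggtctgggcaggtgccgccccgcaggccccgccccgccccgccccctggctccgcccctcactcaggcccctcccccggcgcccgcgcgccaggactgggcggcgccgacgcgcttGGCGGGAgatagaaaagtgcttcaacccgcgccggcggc
CDC25B: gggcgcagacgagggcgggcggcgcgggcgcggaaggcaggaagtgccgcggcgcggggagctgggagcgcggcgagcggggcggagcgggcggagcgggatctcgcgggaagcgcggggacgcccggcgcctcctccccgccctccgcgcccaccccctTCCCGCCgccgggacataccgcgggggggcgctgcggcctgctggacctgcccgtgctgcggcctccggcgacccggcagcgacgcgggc
CENPF (chr1:214602945-214603194, plus strand) and CCNA2 (chr4:121823884-121824133, minus strand) are the 2 genes that fell, and both hold CCAAT. The CHR match of CENPF lies 41 bases after the start, outside the stretch shown. CCNA2 has no exact TTTGAA match in the window, which does not show that it lacks a CHR.
CENPF: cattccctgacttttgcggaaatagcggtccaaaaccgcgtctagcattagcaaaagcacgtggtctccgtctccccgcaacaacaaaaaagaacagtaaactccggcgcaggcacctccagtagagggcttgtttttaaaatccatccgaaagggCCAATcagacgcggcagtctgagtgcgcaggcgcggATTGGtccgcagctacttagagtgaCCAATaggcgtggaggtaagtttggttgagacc
CCNA2: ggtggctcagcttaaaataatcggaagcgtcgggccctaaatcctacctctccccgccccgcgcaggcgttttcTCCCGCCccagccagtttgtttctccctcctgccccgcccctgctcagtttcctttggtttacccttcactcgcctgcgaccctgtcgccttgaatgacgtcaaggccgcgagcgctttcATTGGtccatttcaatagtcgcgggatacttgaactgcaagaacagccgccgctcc
Split by the expression result, a CHR was found in 10 of the 17 genes with an entry that rose and in 17 of the 20 that did not pass the test. CCAAT was found in 12 of 17 and 15 of 20, and the E2F-type site in 7 of 17 and 4 of 20. These are descriptions of matches, and the differences between the subsets were not tested.

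Knockdown of KRT5 went with small rises across many of these genes and a fall of 2. Of the 46, 21 rose, 2 fell and 23 did not pass the test (edgeR's quasi-likelihood test, adjusted p below 0.05 by Benjamini-Hochberg over the 18008 genes tested), so 50% were called where 34.2% of all genes tested were, 17.4% higher and 16.8% lower. Without shCK5-22 replicate 1, which stood apart, 21 of the 46 were called higher and 2 lower, the same numbers as with it. Genes with many counts are called more often: among the 8767 genes at or above the lowest mean level of these 46, 48.8% were called, 26.6% higher and 22.2% lower. Against that second background the share called was alike, while 45.7% of the 46 were called higher. Counts given below for each role stand beside the same shares of all genes, 17.4% or 26.6% higher and 16.8% or 22.2% lower. The rises ran from 6.80% to 39.3% with a median of 11.8%, and none of the 46 changed by more than 1.5-fold, where 8.01% of all genes tested were both called and over 1.5-fold. The median log2 fold change was 0.07 over the 46 and -0.01 over all genes tested. Libraries of the groups did not overlap for 24 of the 46 genes, 22 higher and 2 lower in shCK5-22. Over all genes tested 45.1% did not overlap, 22.8% higher and 22.3% lower. In bulk RNA, more cells in or near mitosis and more RNA per such cell cannot be told apart.

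**Figure D1:**
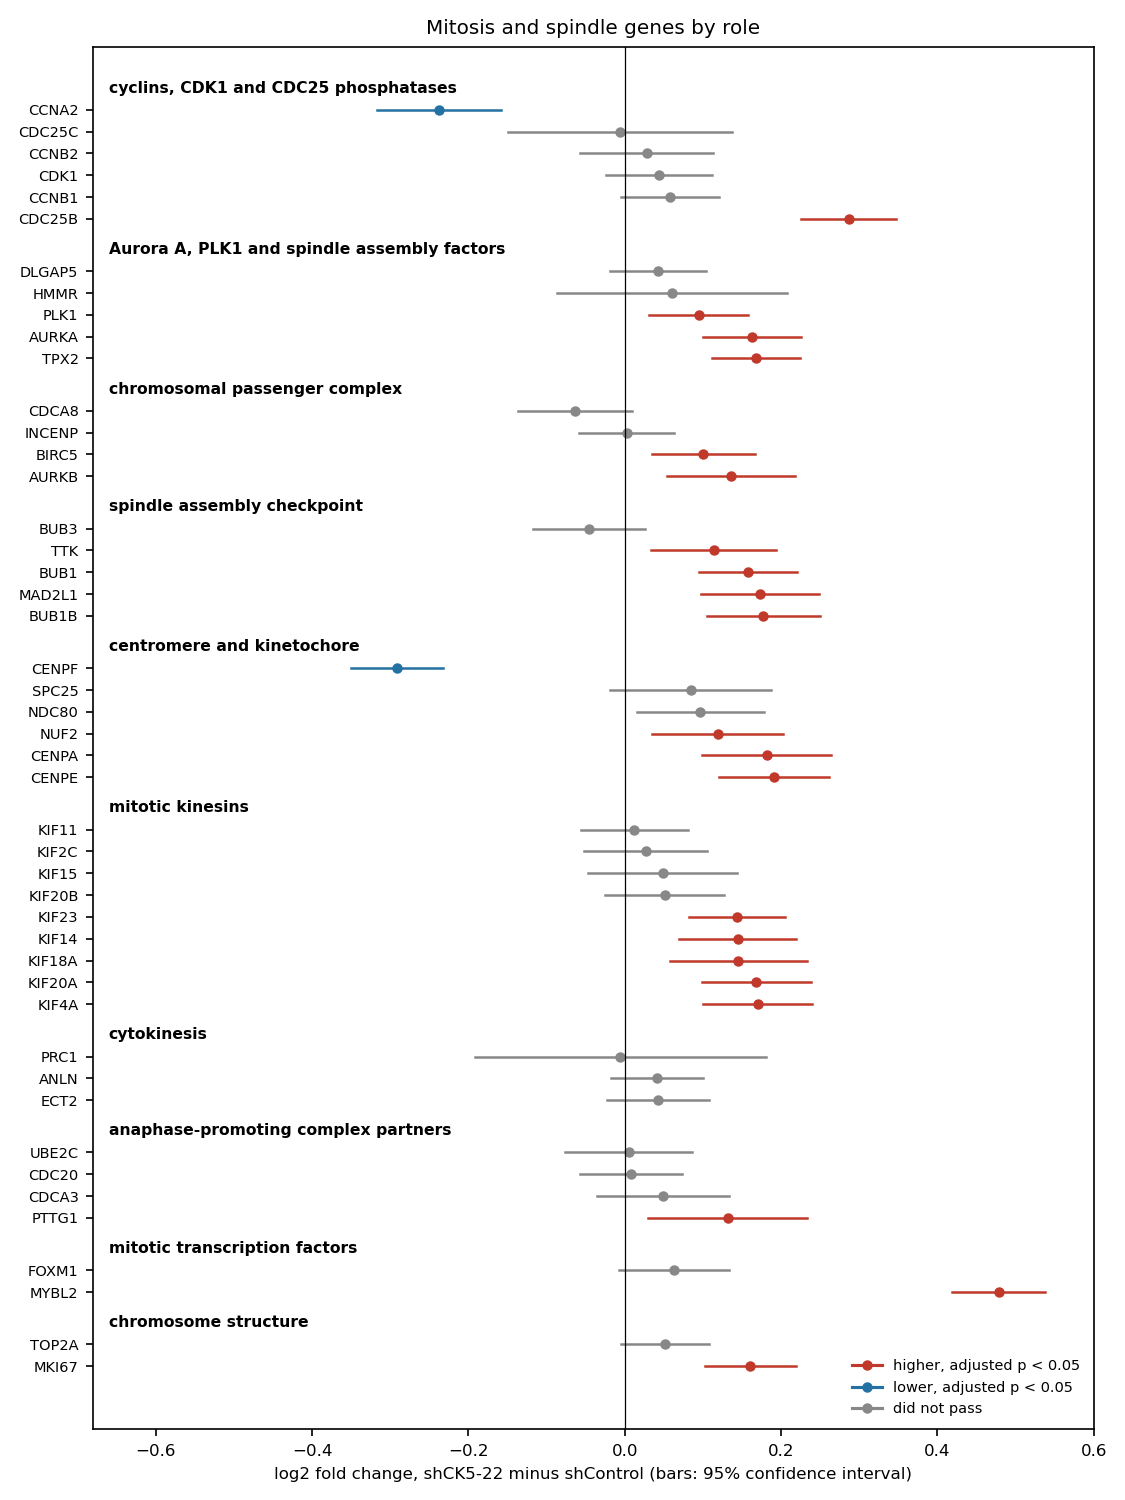
Log2 fold change of each of the 46 genes (x axis, shCK5-22 minus shControl) by role, with bars for the 95% confidence interval; red marks the 21 genes called higher, blue the 2 called lower and grey the 23 that did not pass. MYBL2 at 0.48 and CDC25B at 0.29 lie to the right of all others, and CENPF at -0.29 and CCNA2 at -0.24 to the left.

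The 46 genes together took 0.882%, 0.898% and 0.889% of the counts in shControl replicates 1, 2 and 3, and 0.950%, 0.941% and 0.938% in the shCK5-22 replicates. On the scaled library sizes their sum was 8736, 9009 and 8826 CPM, and 9428, 9594 and 9409 CPM. Every shCK5-22 library was therefore above every shControl library, and this held without MYBL2, at 8324, 8575 and 8398 CPM against 8842, 8994 and 8820 CPM. Within the groups the libraries were not alike. Replicate 2 was the highest shControl library for 32 of the 46 genes and replicate 1 the lowest for 23. In shCK5-22, replicate 2 was the highest for 31 genes and replicate 3 the lowest for 22. The coefficient of variation within a group had a median of 2.72% in shControl and 2.92% in shCK5-22, and was largest for PRC1, at 8.21% and 11.7%.

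**Figure D2:**
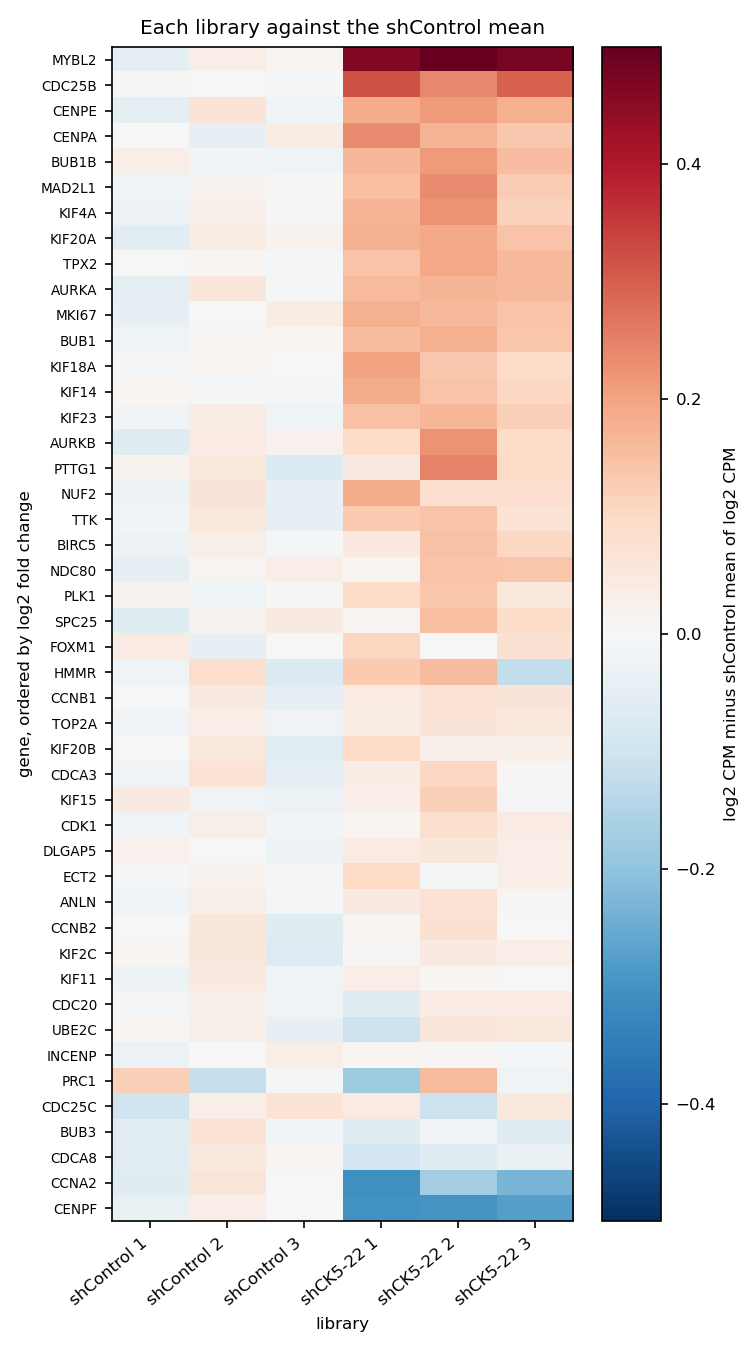
Log2 CPM of each gene (rows, ordered by fold change) in each of the 6 libraries (columns) minus the mean of the 3 shControl libraries; red is higher and blue lower. The upper rows, from MYBL2 to KIF23, are red in all 3 shCK5-22 libraries, and the bottom rows, CCNA2 and CENPF, are blue in all 3, while the middle rows hold differences as small as those among the shControl libraries.

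Of the transcription factors, MYBL2 rose and FOXM1 did not pass. MYBL2 (chromosome 20, 43667019 to 43716496, plus strand, GRCh38) encodes B-MYB, which with MuvB switches on the mitotic genes. It measured 412, 434 and 428 CPM in the control libraries and 585, 600.4 and 589 CPM after knockdown. The groups lie far apart beside their spread, with means of 425 ± 11.4 and 592 ± 7.85 CPM (SD, n = 3 each). The rise was 39.3% (log2 fold change 0.48, 95% confidence interval 0.42 to 0.54, adjusted p = 2.65e-11), the largest change among the 46 genes. FOXM1 encodes the forkhead factor that takes over from B-MYB at these promoters in G2. It measured 153, 144 and 148 CPM under shControl and 159.7, 148 and 156 CPM under shCK5-22, so that the groups overlapped (log2 fold change 0.06, interval -0.0079 to 0.13, adjusted p = 0.169, 0.0487 to 0.476 across alternatives). It passed only without shCK5-22 replicate 2 (adjusted p = 0.0487), and 15.9% of its exon bases are also exons of ITFG2 on the opposite strand. The log2 ratio of MYBL2 to FOXM1 was 1.43, 1.59 and 1.53 in the shControl libraries and 1.87, 2.02 and 1.92 in the shCK5-22 libraries, a difference of 0.42.

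**Figure D3:**
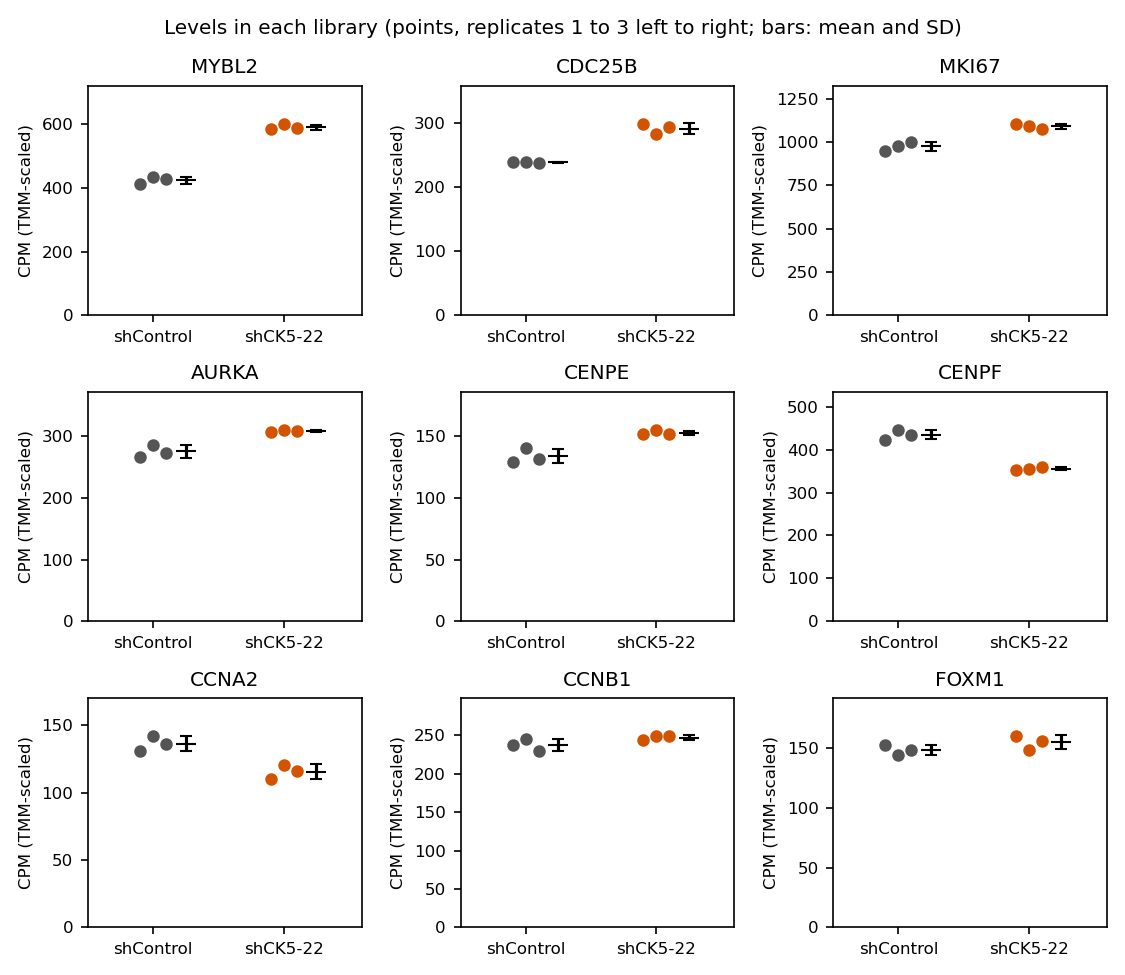
Level of 9 genes in CPM (y axes from 0), with 1 point per library for shControl and shCK5-22 and a bar for the mean and SD of 3 libraries. MYBL2, CDC25B, MKI67, AURKA and CENPE are higher in every shCK5-22 library, CENPF and CCNA2 are lower in every one, and the points of CCNB1 and FOXM1 overlap between the groups.

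Among the cyclins, CDK1 and the CDC25 phosphatases, 1 gene rose, 1 fell and 4 did not pass. CDC25B (chromosome 20, 3786772 to 3806121, plus strand) encodes the phosphatase that starts CDK1 activation at the centrosome. It measured 239.8, 239 and 238 CPM under shControl and 298, 283 and 294 CPM under shCK5-22, with no overlap. It was 22.0% higher (log2 fold change 0.29, interval 0.23 to 0.35, adjusted p = 1.08e-07). CCNA2 (chromosome 4, 121816444 to 121823933, minus strand) encodes cyclin A2, the partner of CDK2 in S phase and of CDK1 in G2. Its level went the other way, with 131, 142 and 136 CPM in shControl and 110.3, 121 and 116 CPM in shCK5-22, and the groups did not overlap. CCNA2 fell by 15.2% (log2 fold change -0.24, interval -0.32 to -0.16, adjusted p = 4.75e-05). For CCNA2, 9.08% of exon bases are also exons of EXOSC9 on the opposite strand. The other 4 genes of this role did not pass. CCNB1, cyclin B1, stood at 238, 245 and 230.1 CPM in shControl against 244, 249 and 249 CPM in shCK5-22, groups that overlapped (log2 fold change 0.06, interval -0.0048 to 0.12, adjusted p = 0.152). CDK1 stood at 121, 125 and 121 CPM in shControl against 123, 129 and 126 CPM in shCK5-22 (log2 fold change 0.04, interval -0.02 to 0.11, adjusted p = 0.333). CCNB2 and CDC25C had log2 fold changes of 0.03 and -0.0064, with intervals of -0.06 to 0.11 and -0.15 to 0.14. The log2 ratio of CCNB1 to CCNA2 was 0.86, 0.79 and 0.75 in the shControl libraries and 1.15, 1.04 and 1.10 in the shCK5-22 libraries, so that cyclin A2 mRNA was lower relative to cyclin B1 mRNA in every shCK5-22 library.

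Of the 5 kinases and spindle assembly factors 3 rose and 2 did not pass. AURKA encodes Aurora A, which matures centrosomes, and TPX2 its activator on spindle microtubules. AURKA measured 266, 285 and 273 CPM under shControl and 306, 309 and 307 CPM under shCK5-22, 11.9% higher (adjusted p = 0.000216). TPX2 stood at 560.1, 566 and 559 CPM in shControl against 621, 643 and 629 CPM in shCK5-22, 12.3% higher (adjusted p = 4.58e-05). Neither overlapped between the groups. PLK1, the Polo-like kinase of mitotic entry and centrosome maturation, rose less, with 200.4, 195 and 199 CPM in shControl against 211, 218 and 205 CPM in shCK5-22 (6.80%, adjusted p = 0.0191, 0.00838 to 0.0984 across alternatives). Its groups did not overlap, but the call was lost without shControl replicate 2 (0.0884), shControl replicate 3 (0.0664) or shCK5-22 replicate 2 (0.0984), and 12.5% of its exon bases overlap other annotated genes. The spindle proteins HMMR and DLGAP5 did not pass, at log2 fold changes of 0.06 and 0.04.

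The chromosomal passenger complex, which corrects wrong attachments at the centromere, had 2 genes that rose and 2 that did not pass. Its kinase AURKB, Aurora B, measured 114, 122 and 121 CPM under shControl and 127, 139 and 127 CPM under shCK5-22, 9.88% higher (adjusted p = 0.0099, 0.00104 to 0.092 across alternatives). That call was lost without shControl replicate 1 (0.092) or shCK5-22 replicate 2 (0.073). BIRC5, which encodes survivin, stood at 178, 185 and 180.1 CPM in shControl against 187, 200.2 and 194 CPM in shCK5-22, 7.23% higher (adjusted p = 0.0167, 0.00175 to 0.105 across alternatives). Both genes were higher in all 3 shCK5-22 libraries than in any shControl library. The BIRC5 call was lost without shControl replicate 1 (0.105) or 3 (0.0739), or shCK5-22 replicate 2 (0.0871) or 3 (0.0617). The scaffold INCENP and borealin, encoded by CDCA8, had log2 fold changes of 0.0026 (interval -0.06 to 0.06) and -0.06 (interval -0.14 to 0.0095) and did not pass.

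Of the 5 checkpoint genes 4 rose and 1 did not pass, where 17.4% of all genes tested were higher, or 26.6% in the second background. The call of TTK did not hold in all alternatives, as given below. BUB1, a kinase that marks centromeric chromatin and recruits the other checkpoint proteins, stood at 145, 149 and 148 CPM in shControl against 164, 167 and 162 CPM in shCK5-22, 11.6% higher (adjusted p = 0.000277). BUB1B, the BubR1 inhibitor of the anaphase-promoting complex, stood at 83.8, 81.2 and 81.0 CPM in shControl against 91.9, 94.9 and 91.2 CPM in shCK5-22, 13.1% higher (adjusted p = 0.00038). MAD2L1, which encodes the Mad2 protein bound to CDC20, stood at 84.4, 86.7 and 86.1 CPM in shControl against 95.2, 101 and 93.7 CPM in shCK5-22, 12.7% higher (adjusted p = 0.000744). In each of these 3 genes the lowest shCK5-22 library was above the highest shControl library. TTK, the Mps1 kinase at the top of the checkpoint, stood at 72.6, 76.0 and 71.2 CPM in shControl against 80.2, 80.9 and 76.8 CPM in shCK5-22, also without overlap (8.20% higher, adjusted p = 0.0251, 0.0101 to 0.142 across alternatives). Its call was lost without shControl replicate 1 (0.0959) or 3 (0.142) or shCK5-22 replicate 2 (0.0817), and with library size as the only scaling (0.0555). BUB3, which carries BUB1 and BubR1 to kinetochores, averaged 138 and 134 CPM and did not pass (log2 fold change -0.05, interval -0.12 to 0.03). For BUB1B, 10.2% of exon bases are shared with the readthrough gene BUB1B-PAK6 on the same strand.

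At centromeres and kinetochores 3 genes rose, 1 fell and 2 did not pass. CENPE, a kinesin that moves chromosomes to the spindle equator, measured 129, 140.2 and 132 CPM under shControl and 152, 155 and 151 CPM under shCK5-22, 14.2% higher (adjusted p = 0.000126). CENPA, the histone variant that marks the centromere, stood at 63.8, 62.1 and 65.5 CPM in shControl against 75.1, 71.8 and 70.1 CPM in shCK5-22, 13.4% higher (adjusted p = 0.00103). CENPF (chromosome 1, 214603195 to 214664588, plus strand), a large coiled-coil protein of the outer kinetochore and nuclear envelope, was the gene that fell most among the 46. It measured 423, 445 and 435 CPM under shControl and 352, 354 and 359 CPM under shCK5-22, and fell by 18.3% (log2 fold change -0.29, interval -0.35 to -0.23, adjusted p = 5.31e-08). No annotated gene overlaps its exons and none of its 50-base windows occurs in another gene's transcript. The log2 ratio of CENPE to CENPF was -1.71, -1.67 and -1.72 in the shControl libraries and -1.21, -1.19 and -1.24 in the shCK5-22 libraries. NUF2 and NDC80 form the microtubule-binding arm of the NDC80 complex. NUF2 stood at 73.8, 78.4 and 72.9 CPM in shControl against 85.4, 79.5 and 79.6 CPM in shCK5-22, 8.58% higher with no overlap (adjusted p = 0.0265, 0.0143 to 0.145 across alternatives). The call was lost without shControl replicate 1 (0.114) or 3 (0.145) or shCK5-22 replicate 1 (0.104), and with library size as the only scaling (0.0675). NDC80 narrowly missed the threshold (log2 fold change 0.10, adjusted p = 0.0595, 0.00244 to 0.276 across alternatives). It passed without shCK5-22 replicate 1 (0.00244), with upper quartile scaling (0.0442) and with the replicate number as a block (0.017). SPC25, of the same complex, did not pass (log2 fold change 0.08, interval -0.02 to 0.19).

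The ratios of MYBL2 to FOXM1, CCNB1 to CCNA2 and CENPE to CENPF were chosen after the values were seen, and do not depend on how libraries were scaled. They are given as a description, with no test.

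All 9 mitotic kinesins had positive log2 fold changes, as had 40 of the 46 genes and 8815 of the 18008 tested. Of the 9 kinesins 5 rose, where 17.4% of all genes tested were higher, or 26.6% at the level of the 46. KIF4A, a chromosome-arm motor of the anaphase spindle, stood at 124, 129 and 127 CPM in shControl against 142, 147 and 137 CPM in shCK5-22, 12.5% higher (adjusted p = 0.00043). KIF20A, which delivers passenger proteins to the midzone, stood at 119, 128 and 126 CPM in shControl against 141, 142 and 137 CPM in shCK5-22, 12.4% higher (adjusted p = 0.000412). KIF23, the centralspindlin motor, stood at 197, 204 and 196 CPM in shControl against 221, 224 and 216 CPM in shCK5-22, 10.5% higher (adjusted p = 0.000599). These 3 are motors of the central spindle, and none overlapped between groups. KIF14, a motor of cytokinesis, stood at 76.2, 75.3 and 75.3 CPM in shControl against 86.0, 83.4 and 81.2 CPM in shCK5-22, 10.5% higher (adjusted p = 0.00325). KIF18A, which damps chromosome movements at microtubule plus ends, stood at 48.7, 49.4 and 48.9 CPM in shControl against 56.4, 53.9 and 52.3 CPM in shCK5-22, 10.6% higher (adjusted p = 0.0102). Both were again higher in every shCK5-22 library. The others did not pass: KIF11, the motor that separates spindle poles, at 0.01 (interval -0.06 to 0.08), the depolymerase KIF2C at 0.03, KIF15 at 0.05 and KIF20B at 0.05. KIF4A shares 13.4% of its 50-base windows with the retrocopy KIF4B, so its count is treated as uncertain.

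Of the 3 genes listed under cytokinesis 0 passed, and of the 4 listed as partners of the anaphase-promoting complex 1 did. The cytokinesis motor KIF14 and the central spindle motors KIF4A, KIF20A and KIF23 rose, but are counted with the kinesins. ANLN, the contractile ring scaffold anillin, stood at 827 ± 15.5 and 851 ± 19.7 CPM (SD, n = 3 each; log2 fold change 0.04, interval -0.02 to 0.10). ECT2, the RhoA exchange factor, stood at 205 ± 2.04 and 211 ± 8.03 CPM (log2 fold change 0.04, interval -0.02 to 0.11). PRC1, the bundler of midzone microtubules, had the lowest level of all, 11.5 and 11.4 CPM, but 57.6% of its exon bases lie under another annotated gene, AC068831.7, on the same strand, so its count is uncertain. Among partners of the anaphase-promoting complex, its activator CDC20 and its ubiquitin-conjugating enzyme UBE2C had intervals of -0.06 to 0.07 and -0.08 to 0.09 around log2 fold changes of 0.0078 and 0.0051. CDCA3, an adaptor linked to WEE1 destruction, was at 0.05. PTTG1, which encodes securin, was the one called gene whose groups overlapped, at 70.3, 72.0 and 66.2 CPM in shControl and 71.6, 82.4 and 74.3 CPM in shCK5-22 (9.55% higher, adjusted p = 0.044, 0.00288 to 0.255 across alternatives). It rested on shCK5-22 replicate 2, at 0.13 with it and 0.07 without it (adjusted p = 0.255). Its call was also lost without shCK5-22 replicate 3 (0.0657), shControl replicate 1 (0.105) or shControl replicate 3 (0.22), with library size only (0.0564), with the 1 CPM filter (0.0606) and with limma-voom (0.0652).

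Of the common proliferation markers MKI67 rose and TOP2A did not pass. MKI67 (chromosome 10, 128096659 to 128126385, minus strand) encodes Ki-67, the coat protein of mitotic chromosomes used in pathology to count cycling cells. It measured 949, 978 and 999.6 CPM under shControl and 1103, 1091 and 1077 CPM under shCK5-22, 11.8% higher with no overlap (log2 fold change 0.16, interval 0.10 to 0.22, adjusted p = 0.000105). TOP2A, the topoisomerase that untangles sister chromatids, stood at 652, 675 and 653 CPM in shControl against 678, 690.4 and 684 CPM in shCK5-22. Those groups did not overlap either, but the difference of 0.05 (interval -0.0048 to 0.11) did not pass (adjusted p = 0.156), and DLGAP5 was the one other gene of that kind. A difference between MKI67 and TOP2A was not tested. Levels per kilobase used the merged exons of all annotated transcripts of a gene. The highest of the 46 in shControl were UBE2C (207 CPM per kb), TPX2 (156), MYBL2 (153), ANLN (138) and CDC20 (138). MKI67, the most counted, came to 76.2. The lengths of the transcripts in use were not measured, so this order need not be that of abundance. In shCK5-22 MYBL2 reached 213 CPM per kb, above UBE2C at 207.

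Across the 23 genes that did not pass, 19 fold changes were positive and 4 negative, between -0.06 and 0.10 on the log2 scale. Leaving out PRC1, HMMR and CDC25C, which had the fewest counts, the 95% intervals of the other 20 lay within -0.14 and 0.19. A gene that missed the threshold is not shown to be unaltered.

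Further genes of mitosis come from lists written from general knowledge but with earlier results of these data known, so their counts are descriptions. Over all genes tested 17.4% were higher and 16.8% lower. Among genes at or above the lowest mean level of the 46 the shares were 26.6% and 22.2%. Of 20 cohesin and condensin genes 19 were tested, 11 rose and 0 fell (median log2 fold change 0.11). The 4 with the largest changes were ESPL1, which encodes separase (0.29, from 120.5 to 147 CPM), the cohesin subunits STAG1 (0.22) and SMC3 (0.19), and the condensin subunit NCAPG (0.22). Of 31 other kinetochore and centromere genes tested 6 rose and 2 fell (median 0.01), a share of rises near that of all genes. SKA2, SKA3 and CENPQ rose by 0.25, 0.23 and 0.18, and MIS12, a core kinetochore protein, fell by 0.58 from 24.8 to 16.6 CPM. Of 17 subunits, enzymes and inhibitors of the anaphase-promoting complex 6 rose and 1 fell (median 0.11). ANAPC15, ANAPC1 and ANAPC5 rose by 0.29, 0.19 and 0.15, while ANAPC16 fell by 0.56 from 46.1 to 31.3 CPM. Of 30 other spindle and cytokinesis genes 10 rose and 2 fell (median 0.09), with rises of 0.19 for HAUS1, 0.16 for DEPDC1, 0.14 for the citron kinase CIT and 0.14 for NUSAP1. MIS12 and ANAPC16 changed by more than any of the 46 genes.

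Regulators of mitotic entry and exit went both ways, with 5 of 12 higher and 3 lower (median -0.04). Of all genes tested 17.4% were higher and 16.8% lower, or 26.6% and 22.2% at the level of the 46. The phosphatases CDC14A and PPP1CC rose by 0.43 and 0.27, and the phosphatase inhibitor ARPP19 by 0.24. CKS2, a small subunit bound to CDK1, fell by 0.49 from 92.0 to 65.5 CPM. Of 16 DREAM, MuvB and NF-Y genes tested, 7 rose and 1 fell (median 0.11), beside the same shares. E2F7, a repressor of the E2F family, rose by 0.28, and E2F4 and the pocket protein gene RBL2 by 0.21 and 0.18. TFDP2, an E2F partner, fell by 0.17.

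Genes of DNA replication and S phase showed another balance, with 11 of 50 tested higher and 16 lower (median -0.04). Of the 46 mitotic genes 21 rose and 2 fell. Over all genes tested 17.4% were higher and 16.8% lower, or 26.6% and 22.2% at the level of the 46. POLA2, a subunit of the priming polymerase, and CDC6, the licensing factor, fell by 0.31 and 0.27. CDC25A and CCNE2, regulators of S phase entry, rose by 0.30 and 0.28. The difference between the lists was not tested. Of the written genes, SMC4, TUBA1B, SPAG5, CENPN, PMF1, LIN37 and E2F8 were listed at 0 in every library, and whether that came from the counting was not tested.

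**Figure D4:**
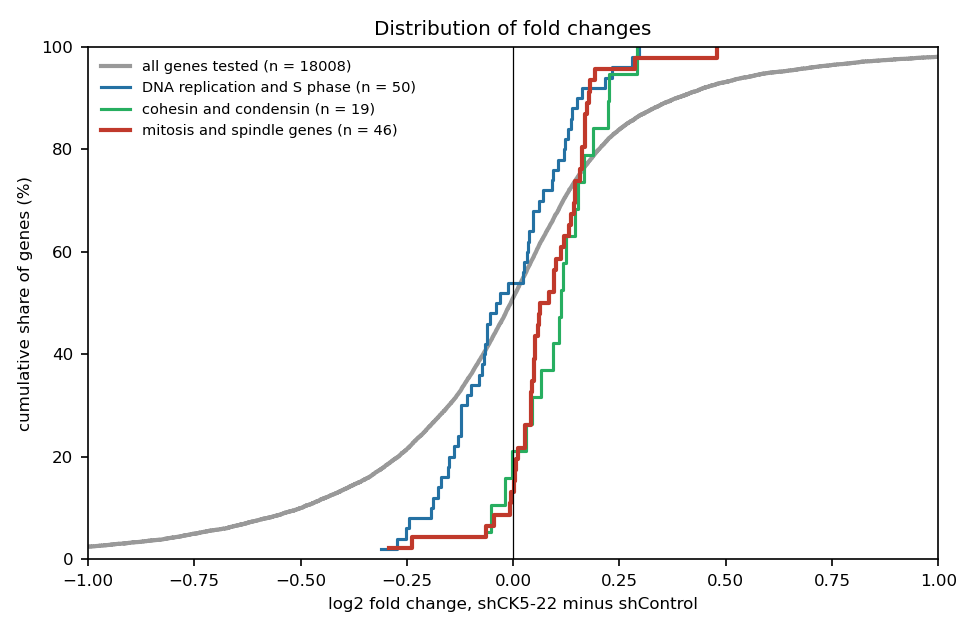
Cumulative share of genes (y axis, %) by log2 fold change (x axis, shCK5-22 minus shControl, cut at -1 and 1) for the 46 mitotic genes, 50 genes of DNA replication and S phase, 19 genes of cohesin and condensin and all 18008 genes tested. The curves of the mitotic and the cohesin and condensin genes rise mostly to the right of 0, that of the replication genes lies on both sides, and all 3 lists are narrower than the curve of all genes.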

How the data were processed

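The authors deposited 1 table of whole-number read counts per gene symbol and library, with 1 column per sorted alignment file, per the file headers. Per the submitters' processing notes, cutadapt, STAR, SAMtools and Cufflinks were used with the build GRCh38. The counting program, its annotation and its strand setting remain not given in the sources used here. Of 56505 rows, 27 carried a calendar date in place of a symbol (0.167% to 0.175% of counts) and were left out. Counts of 6 libraries were fitted with edgeR 4.0.16 (R 4.3.3): quasi-likelihood test, robust, TMM scaling, filterByExpr, group as the only term, Benjamini-Hochberg over 18008 genes. P-values are two-sided with a threshold of 0.05. CPM uses TMM-scaled library sizes, SDs are over 3 libraries, and 95% intervals use an SE taken from each fold change and F value. Separate cultures are not named in the labels, so p-values reflect variation among libraries that could be technical alone.

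The 46 genes and the other lists were chosen with earlier results of these data known. Each gene past the threshold is named with all libraries, as are MKI67, TOP2A, CCNB1, CDK1, AURKA, AURKB, PLK1, FOXM1 and MYBL2. Other lists name up to 4 genes past the threshold with the largest changes. Coordinates, exon lengths and overlaps come from GENCODE release 29, and promoters from RefSeq. Overlap with other genes was measured for the 46 genes alone. Alternatives were RLE, upper quartile and library size scaling, no filter, a filter of 1 CPM in 3 libraries, a threshold of 0.01, DESeq2 1.42.0, limma-voom (limma 3.58.1), a replicate block and leaving out each library.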

Additional observations from a re-analysis of the deposited data

How the results depend on the processing

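Of the 23 calls among the 46 genes, 16 held in all 15 alternatives, and the 2 falls, CCNA2 and CENPF, were among them. The number of genes called higher was 21, and stood at 21 with RLE size factors, without a filter and with DESeq2, 20 with limma-voom and with the 1 CPM filter, 22 with upper quartile scaling, 18 with library size only and 15 at a threshold of 0.01. Leaving out 1 library at a time gave 16 to 21 higher and 2 lower. Calls were lost for PLK1, AURKB, BIRC5, TTK, NUF2 and PTTG1 without single libraries, as given with each gene, and for KIF18A at the threshold of 0.01 alone (adjusted p = 0.0102). Over all genes, 3134 were called higher and 3019 lower, and leaving out 1 library gave 2519 to 3098 and 2391 to 3087. The median log2 fold change of the 46 genes lay between 0.060 and 0.087, and that of all genes between -0.02 and 0.00. With library size only, the calls of TTK, NUF2 and PTTG1 were lost. With the replicate number as a block, 22 genes were called higher and 2 lower, and 3456 and 3287 over all genes. Whether the numbers pair the libraries was not settled. Deviations of libraries with the same number correlated at 0.0647, 0.132 and -0.0226, and those of libraries with different numbers at -0.13 to 0.064. The fewest counts behind a value were 598, and groups of 3 libraries limit what can be called.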
